A study of Mus musculus with 6 samples.

Results

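The IGF axis was examined in primary cultured mouse renal tubule epithelial cells (RTECs) treated with TGF-β1. 10 genes were followed, namely the ligand gene Igf1, the receptor genes Igf1r and Insr, the receptor substrate gene Irs1, and the binding protein genes Igfbp2, Igfbp3, Igfbp4, Igfbp5, Igfbp6 and Igfbp7. They were chosen by symbol from the 46517 genes in the count files. All 10 had enough reads to be among the 15862 genes tested.

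Cells came from kidneys of wild type FvB mice, 4 to 6 weeks old by the sample labels and slightly younger by the study's methods. They were grown in medium with 10% fetal bovine serum, 20 ng/ml EGF and a supplement of insulin, transferrin and selenium, and then kept without serum for 24 h. 3 cultures (TGF-β1) next received 50 ng/ml TGF-β1 for 24 h and 3 cultures (CTL) were controls. Whether cultures of a group came from separate mice is not stated, so p-values refer to cultures and are not known to cover differences between mice. The comparison asks which transcripts change when tubule cells meet TGF-β1, the main profibrotic cytokine of the kidney.

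IGF1 binds the IGF1 receptor, a tyrosine kinase closely related to the insulin receptor, and both phosphorylate docking proteins such as IRS1 that recruit PI3K and lead to AKT. Most secreted IGF outside cells is held by IGF-binding proteins, which lengthen its life, keep it from the receptor or deliver it to the cell surface. Secreted proteases cut some binding proteins and free the ligand. In the kidney, IGF1 is known for its effects on tubule growth and filtration.

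Counts on genes summed to 28313080 to 34183497 per library. 3 counts, taken as the floor, correspond to 0.0878 to 0.106 CPM (counts scaled by library total), and this floor covers counting error only. Levels are given as normalized counts, which are read counts brought to a common library size by TMM scaling. The labels number the cultures but state no pairing, so pairing by number was inferred from these same counts. Deviations from the group mean correlated at 0.34, 0.684 and 0.572 between same-numbered CTL and TGF-β1 cultures, and at -0.617 to 0.215 between others. Replicate 1 was the least clear, at 0.34 with its own number beside 0.215 for CTL replicate 1 with TGF-β1 replicate 3. Every call with the block depends on this inferred pairing. Changes were tested with edgeR's quasi-likelihood test across all 15862 genes, two-sided, with Benjamini-Hochberg adjusted p-values and a threshold of 0.05. The fit without a replicate block follows the study's unpaired comparison. The fit with the replicate number as a block is given beside it where it changes a call or a count. P-values without the block set a change against the spread between cultures of a group. With the block they set it against the spread of the differences within pairs.

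The replicate 2 cultures stood apart in both groups. The summed level of 6 pan-tubule epithelial markers (Epcam, Cdh1, Cdh16, Krt8, Krt18 and Pax8) was 58860, 30380 and 80830 normalized counts in CTL replicates 1, 2 and 3, and 53690, 26580 and 66770 in TGF-β1 replicates 1, 2 and 3. Summed over 12 fibroblast and mural cell markers, the level was 60370, 98050 and 52420 in CTL and 80240, 125400 and 60630 in TGF-β1. The epithelial sum was thus lowest and the fibroblast and mural sum highest in replicate 2 of each group. These sums are carried by their abundant genes. In replicate 2 of both groups Epcam, Cdh1, Krt8 and Krt18 were lowest. Cdh16 and Pax8 were lowest in replicate 2 with TGF-β1 but not in CTL. Pdgfrb, Dcn, Col1a1, Col1a2, Col3a1 and Cspg4 were highest in replicate 2 of both groups, while Pdgfra, Thy1 and Postn were lowest there. 2 of the 6 epithelial markers fell, Cdh16 (log2 fold change -1.50, adjusted p = 0.00922) and Pax8 (-0.77, adjusted p = 0.00436), and 0 rose. With the block 4 fell, Epcam (adjusted p = 0.0376) and Cdh1 (adjusted p = 0.0194) in addition, and 0 rose. Of 11 fibroblast and mural markers tested, 0 rose and Des fell (-1.17, adjusted p = 0.0113). With the block 4 rose and 3 fell. Of all tested genes, 5.00% rose and 6.69% fell without the block, and 15.1% rose and 19.1% fell with it.

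Markers of single tubule segments were scarce. Of 10 proximal tubule markers, 5 (Slc34a1, Slc5a2, Slc22a6, Slc27a2 and Miox) stayed under 20 normalized counts in every library. The proximal sum was 2486 to 2988 in CTL and 1144 to 1589 in TGF-β1, and Lrp2 (-0.93, adjusted p = 0.0165) and Aqp1 (-2.91, adjusted p = 0.00919) fell, with Hnf4a in addition under the block (adjusted p = 0.00448). The sums were 69.2 to 150.5 in CTL and 84.5 to 96.5 in TGF-β1 for 8 thick ascending limb and distal markers (5 under 20 throughout), and 22.1 to 44.7 and 9.32 to 23.4 for 6 collecting duct markers (5 under 20, Aqp2 among them). Only 3 of these distal markers and 1 collecting duct marker were tested. 0 passed without the block, and 1 of each list fell with it (Umod and Scnn1g). For 6 endothelial markers the sums were 29.0 to 80.8 and 32.9 to 91.2, with Pecam1 and Cdh5 under 20. For 6 leukocyte markers they were 203 to 269 and 122 to 218, with Csf1r lower (-1.32, adjusted p = 0.0238). For 5 podocyte markers, with Nphs1 under 20, they were 14130 to 21630 and 11340 to 13210. 0 of 3 tested podocyte markers passed without the block, while Podxl, Wt1 and Synpo fell with it. Beside these lists, 6.69% of all tested genes fell without the block and 19.1% with it. In bulk RNA, fewer cells of a type and less RNA per cell cannot be told apart, and the part of cell makeup in the changes of the IGF axis was not tested.

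3 IGF axis genes passed the threshold without the block: Igfbp5 and Irs1 were higher and Igf1r was lower with TGF-β1. Their promoters are shown because they are the regulatory sequence next to these changes. Each is the 250 bases before the transcription start in RefSeq (GRCm38.p6), read 5′ to 3′ on the gene's strand, and RefSeq starts can differ from the gene bounds given later. Capitals mark the SMAD box, the 4-letter element AGAC or its reverse complement GTCT, which the factors activated by TGF-β receptors are known to bind.
Igfbp5, chr1:72874866-72875115, minus strand: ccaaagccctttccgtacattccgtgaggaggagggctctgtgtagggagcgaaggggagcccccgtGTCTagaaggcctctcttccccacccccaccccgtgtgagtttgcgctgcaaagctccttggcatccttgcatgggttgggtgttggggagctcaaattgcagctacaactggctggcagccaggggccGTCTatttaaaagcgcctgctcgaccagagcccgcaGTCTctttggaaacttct
Irs1, chr1:82291440-82291689, minus strand: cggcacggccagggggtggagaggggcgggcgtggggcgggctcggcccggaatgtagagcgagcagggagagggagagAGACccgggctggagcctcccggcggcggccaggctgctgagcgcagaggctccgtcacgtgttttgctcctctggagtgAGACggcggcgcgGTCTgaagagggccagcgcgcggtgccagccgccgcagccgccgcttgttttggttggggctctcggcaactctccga
Igf1r, chr7:67952007-67952256, plus strand: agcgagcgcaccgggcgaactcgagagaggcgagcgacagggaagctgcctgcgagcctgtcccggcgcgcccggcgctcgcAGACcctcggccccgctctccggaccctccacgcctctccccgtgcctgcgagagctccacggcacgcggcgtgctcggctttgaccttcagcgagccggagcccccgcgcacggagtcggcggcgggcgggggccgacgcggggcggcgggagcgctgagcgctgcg
The Igfbp5 window held 3 boxes, with first bases at -183, -54 and -18 from the start, and its GC content was 58.8%. The Irs1 window also held 3, at -171, -91 and -78, with a GC content of 72.4%. The Igf1r window held 1, at -168, with a GC content of 77.6%. So short an element is common: 83.0% of 27025 promoters of this length, 1 per gene, held at least 1 box on either strand, and their median was 2. Of the IGF axis genes that did not pass without the block, Igf1 and Igfbp6 held 1 and 2 boxes, and Igfbp7 and Igfbp4 held 0. Igfbp3 held 2, and the separate Igfbp2 windows held 1 and 3. The 8-letter palindrome GTCTAGAC (0.174% of promoters, both strands; it contains the box on each strand) and the FoxO element TGTTTAC (3.09%, both strands) were in 0 of these windows. TATAAA on the gene's strand (8.12% of promoters) was found in the Igfbp4 window, at -28. These matches describe letters and do not show binding.

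**Figure D1:**
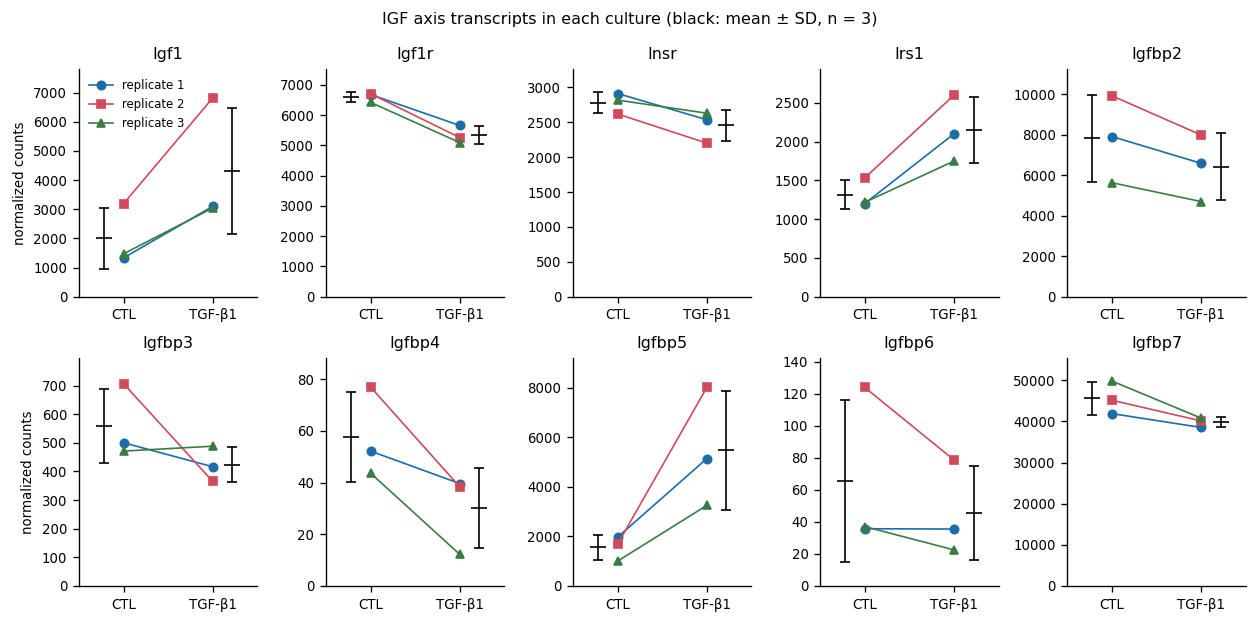
Normalized counts of the 10 IGF axis genes (y axis, from 0) in CTL and TGF-β1 cultures (x axis). Coloured points joined by lines are same-numbered cultures and black bars are the mean ± SD of 3 cultures. Igfbp5 rises in every pair, from 1003 to 1968 in CTL to 3249 to 8009 with TGF-β1, while the Igf1 groups overlap although each line rises.

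Igf1 encodes the secreted ligand. In GRCm38, the build of all positions here, it spans 87858265 to 87937042 of chromosome 10 on the plus strand. Its normalized counts were 1330, 3189 and 1471 in CTL replicates 1, 2 and 3, and 3097, 6812 and 3041 in TGF-β1 replicates 1, 2 and 3. CTL replicate 2 was above TGF-β1 replicates 1 and 3, so the groups overlapped, yet the level was 2.33, 2.14 and 2.07 times higher with TGF-β1 within pairs 1, 2 and 3. Without the block the log2 fold change was 1.11 ± 0.47 (SE, adjusted p = 0.186 from edgeR). SE here is an approximate standard error, the size of the log2 fold change divided by the square root of the test's F value. With the block Igf1 rose, by 1.12 ± 0.049 (SE, adjusted p = 5.55e-06). Leave-one-out fits without the block gave 0.615 (without TGF-β1 replicate 2) to 1.62 (without CTL replicate 2), and 0 of the 6 passed. Without both replicate 2 cultures and without a block it was 1.13 (adjusted p = 0.00111). It did not pass in the like fits without both replicate 1 cultures (1.08, adjusted p = 0.547) or both replicate 3 cultures (1.13, adjusted p = 0.342). Igf1 was highest in replicate 2 of each group, as were 6 of the 12 fibroblast and mural markers, and 3 of the 12 were lowest there.

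**Figure D2:**
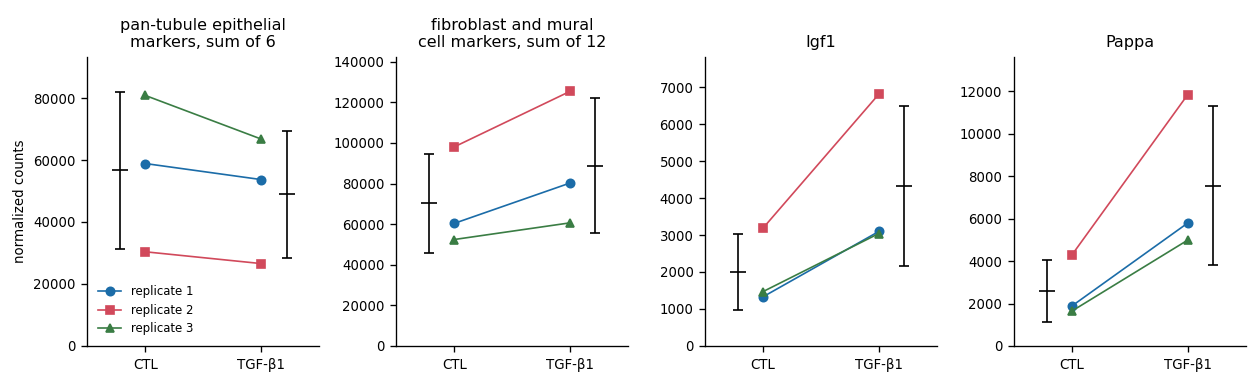
Normalized counts (y axes, from 0) of pan-tubule epithelial markers, of fibroblast and mural cell markers, of Igf1 and of Pappa in CTL and TGF-β1 cultures (x axis), with same-numbered cultures joined and the mean ± SD of 3 cultures in black. Replicate 2 is lowest in the first panel and highest in the others in both groups.

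Of the other ligand genes, Igf2 had 65.7, 102 and 53.4 normalized counts in CTL and 35.5, 88.0 and 48.8 in TGF-β1. Its log2 fold change was -0.36 ± 0.40 (SE, adjusted p = 0.605). Igf2r, which encodes the receptor that clears IGF2, ranged from 6957 to 9466 in CTL and from 7059 to 10294 in TGF-β1 (0.07, adjusted p = 0.831). Ins1 and Ins2 were at 0 in all 6 libraries. Igfbp1, a further binding protein gene, had 0 to 2.18 normalized counts and was not tested. Of 8 such genes outside the 10, 3 were tested and 0 passed in either fit, with a median log2 fold change of 0.07 without the block.

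Of the receptor transcripts, Igf1r fell in both fits and Insr fell with the block. Igf1r lies on chromosome 7, from 67952827 to 68233668 on the plus strand. It had 6677, 6704 and 6419 normalized counts in CTL and 5656, 5257 and 5092 in TGF-β1. The lowest CTL culture was above the highest TGF-β1 culture, and the pairs stood at 0.847, 0.784 and 0.793 times CTL. Igf1r fell by 0.31 ± 0.055 on the log2 scale (SE, adjusted p = 0.0216), and with the block the adjusted p-value was 0.00127. Leave-one-out fits without the block gave -0.35 to -0.27. The adjusted p-value was then 0.11 without CTL replicate 1, 0.0588 without CTL replicate 2, 0.0538 without TGF-β1 replicate 1 and 0.0598 without TGF-β1 replicate 3. The leave-one-out fits, here and for the other genes, called 109 to 516 of all tested genes higher and 186 to 807 lower. With all cultures 793 were higher and 1061 lower.

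Insr, the insulin receptor gene on chromosome 8 (3122061 to 3279617, minus strand), had 2912, 2618 and 2818 normalized counts in CTL and 2536, 2201 and 2630 in TGF-β1. TGF-β1 replicate 3 was just above CTL replicate 2, so the groups overlapped, and each pair was lower with TGF-β1. The log2 fold change was -0.18 ± 0.081 (SE, adjusted p = 0.202), and Insr fell with the block (adjusted p = 0.0191). With the block and without both replicate 1 cultures its adjusted p-value was 0.186. The difference between the receptors was measured within each library, as the log2 ratio of Igf1r to Insr per kb of exon. In CTL the ratio was 0.959 ± 0.0948 (SD, n = 3), and with TGF-β1 it was 0.834 ± 0.154 (SD, n = 3). It was lower in 3 of 3 pairs, and the difference of -0.125 did not exceed the spread between cultures (two-sided exact permutation test, p = 0.4, with 0.1 the smallest p that 3 against 3 allow).

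Irs1, which encodes the docking protein of both receptors, rose in both fits. It lies on chromosome 1, from 82233101 to 82291416 on the minus strand, and its exons share 2822 bp with Gm9747 on the other strand. Reads there may have been left out or counted to Gm9747, as the strand setting is not given. Normalized counts of Irs1 were 1201, 1533 and 1218 in CTL and 2099, 2598 and 1748 in TGF-β1. Every TGF-β1 culture was above every CTL culture, and the pairs differed 1.75, 1.70 and 1.44 times. The log2 fold change was 0.71 ± 0.17 (SE, adjusted p = 0.0495), and with the block it was 0.70 (adjusted p = 0.000142). Without the block the call rested near the threshold. Leave-one-out fits gave 0.54 to 0.84, and among them the adjusted p-value stayed under 0.05 only without TGF-β1 replicate 3 (0.0439). Without CTL replicates 1, 2 and 3 it was 0.183, 0.0539 and 0.121, and without TGF-β1 replicates 1 and 2 it was 0.137 and 0.0825.

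Among the binding proteins, Igfbp5 had the largest change of the 10 genes. Its product binds extracellular matrix as well as IGFs. Igfbp5 lies on chromosome 1, from 72857932 to 72874884 on the minus strand, and had 1968, 1691 and 1003 normalized counts in CTL and 5138, 8009 and 3249 in TGF-β1. The groups did not overlap, and the level was 2.61, 4.74 and 3.24 times higher within pairs 1, 2 and 3. The log2 fold change was 1.81 ± 0.39 (SE, adjusted p = 0.0386), and 1.78 ± 0.16 with the block (SE, adjusted p = 0.000672). Leave-one-out fits without the block gave 1.43 to 2.08. The adjusted p-value was then 0.11, 0.0847 and 0.0816 without CTL replicates 1, 2 and 3, 0.112 and 0.0691 without TGF-β1 replicates 1 and 2, and 0.0372 without TGF-β1 replicate 3. With the block it was 3.46e-06 when the replicate 2 pair was left out, but 0.185 when the replicate 3 pair was.

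Igfbp2 is the neighbour of Igfbp5. It lies on chromosome 1 from 72824503 to 72852474 on the plus strand, and the genes point toward each other across a gap of 5457 bp. Igfbp2 had 7908, 9920 and 5629 normalized counts in CTL and 6588, 7987 and 4699 in TGF-β1. Cultures with the same number lay close in relative terms, at 0.833, 0.805 and 0.835 times CTL, while the groups overlapped. The log2 fold change was -0.28 ± 0.26 (SE, adjusted p = 0.536), and Igfbp2 fell with the block (-0.28 ± 0.042, adjusted p = 0.00159). Leave-one-out fits without the block gave -0.475 (without TGF-β1 replicate 2) to -0.0749 (without CTL replicate 2). The neighbours thus differed in direction in every pair.

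Igfbp7 encodes a secreted protein with low affinity for IGFs, known also as a marker of tubule injury and cell cycle arrest. It lies on chromosome 5 from 77349240 to 77408041 on the minus strand, and 85 bp of its exons overlap Polr2b. It had by far the most reads of the 10 genes, with 41909, 45153 and 49820 normalized counts in CTL and 38536, 40126 and 40815 in TGF-β1. The groups did not overlap. The log2 fold change was -0.20 ± 0.082 (SE, adjusted p = 0.176), and Igfbp7 fell with the block (-0.19, adjusted p = 0.0286). With the block its adjusted p-value was 0.161 if the replicate 1 pair was left out and 0.113 if the replicate 3 pair was.

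Igfbp3, which carries most circulating IGF, had 500, 707 and 471 normalized counts in CTL and 416, 366 and 488 in TGF-β1. It lies on chromosome 11 from 7206086 to 7213923 on the minus strand, 3539 bp from Igfbp1. The pairs stood at 0.832, 0.517 and 1.04 times CTL, and the log2 fold change was -0.40 ± 0.19 (SE, adjusted p = 0.219). With the block the adjusted p-value was 0.168, and without both replicate 3 cultures, also with the block, it was 0.0147.

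Igfbp4 and Igfbp6 were the least abundant. Igfbp4, an inhibitory binding protein and a substrate of the protease PAPP-A, lies on chromosome 11 from 99041244 to 99054392 on the plus strand. It had 52.2, 76.9 and 43.6 normalized counts in CTL and 39.6, 38.3 and 12.2 in TGF-β1, without overlap. Its log2 fold change was -0.95 ± 0.45 (SE, adjusted p = 0.231), and it fell with the block (-0.96, adjusted p = 0.0222), but the adjusted p-value was 0.0697 when both replicate 2 cultures were also left out. Igfbp6, which prefers IGF2, lies on chromosome 15 from 102144362 to 102149511 on the plus strand. It had 35.7, 124 and 37.1 normalized counts in CTL and 35.5, 78.7 and 22.5 in TGF-β1. Replicate 2 was highest in both groups and the log2 fold change was -0.54 ± 0.67 (SE, adjusted p = 0.654). Without CTL replicate 2 it was 0.32.

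**Figure D3:**
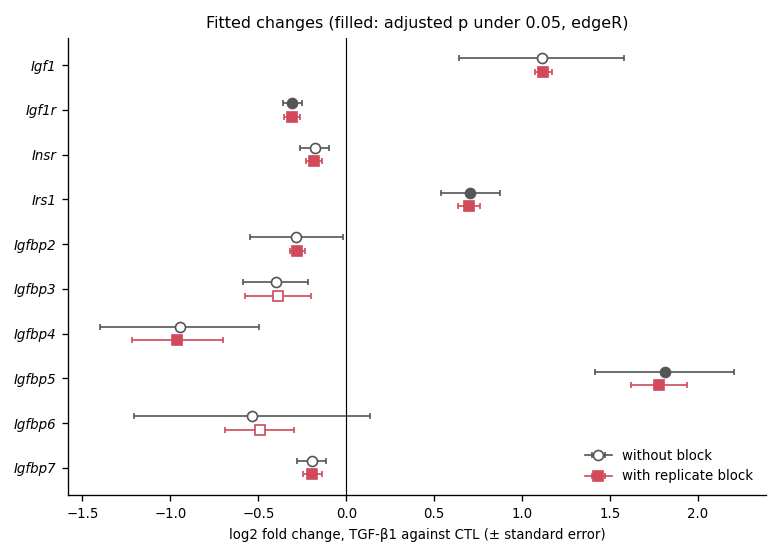
Log2 fold change of TGF-β1 against CTL (x axis) for the 10 genes (y axis) from edgeR, with approximate standard errors (SE) as bars. Circles are the fit without a block, squares the fit with the replicate block, and filled symbols have an adjusted p-value under 0.05. The Igf1 bar shrinks from 0.47 to 0.049 with the block while its value is 1.11 and 1.12.

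Without the block, 2 of the 10 genes were higher, against 5.00% of all tested genes, and 1 was lower, against 6.69%. With the block, 3 were higher (Igf1, Irs1 and Igfbp5), against 15.1% of tested genes, and 5 were lower (Igf1r, Insr, Igfbp2, Igfbp4 and Igfbp7), against 19.1%. The groups did not overlap, with TGF-β1 higher, for 2 of the 10 genes and 17.2% of tested genes. With TGF-β1 lower, they did not overlap for 3 of the 10 and 18.0% of tested genes. The level moved up in all 3 pairs for 3 of the 10 (30.4% of tested genes) and down in all 3 pairs for 6 (32.6%), and Igfbp3 was mixed. The median log2 fold change of the 10 was -0.24 without the block, beside -0.0028 over all genes tested. With the block and without both replicate 2 cultures, 3 of the 10 rose (Igf1, Irs1 and Igfbp5) and 4 fell (Igf1r, Insr, Igfbp2 and Igfbp7). Of 15955 genes tested in that fit, 2288 rose and 2718 fell.

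Levels of different genes were compared per kb of exon. In CTL the order was Igfbp7 with 37740 normalized counts per kb, Igfbp2 with 4233, Igf1r with 393, Igfbp5 with 259, Insr with 202, Igf1 with 202, Igfbp3 with 179, Irs1 with 144, Igfbp6 with 59.0 and Igfbp4 with 13.0. The ranges of 3 cultures overlapped between each neighbour from Igfbp5 to Irs1, so neighbours among these 5 genes were not told apart. Insr (190.5 to 211.8) did lie above Irs1 (131.4 to 167.6) without overlap. With TGF-β1, Igfbp5 (910 per kb) and Igf1 (436) came next after Igfbp7 (32940) and Igfbp2 (3478). They were followed by Igf1r (318), Irs1 (235), Insr (179), Igfbp3 (135), Igfbp6 (41.0) and Igfbp4 (6.80). The ranges of Igfbp5 and Igf1, of Igf1 and Igf1r, and of Irs1 and Insr overlapped.

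**Figure D4:**
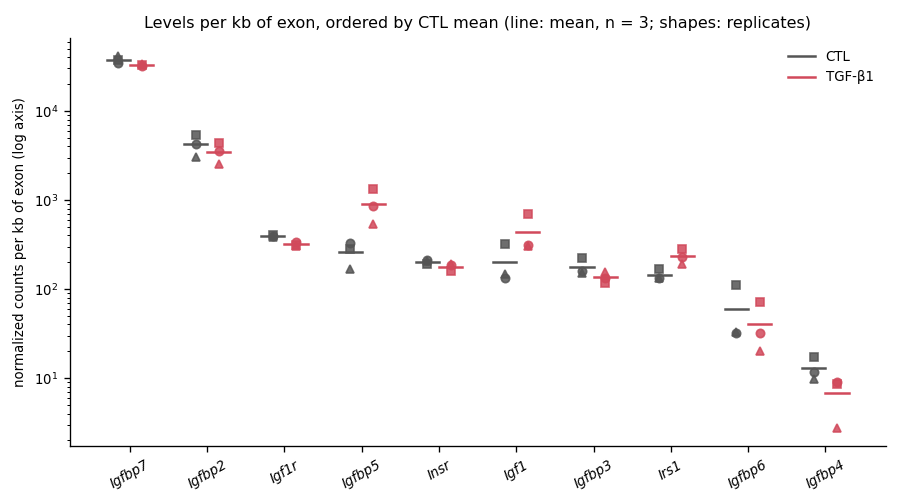
Normalized counts per kb of exon (y axis, log scale) of the 10 genes, ordered along the x axis by their CTL mean. Points are cultures, with a shape for each replicate number, and lines are means of 3 cultures. Igfbp7 is highest at 37740 in CTL and 32940 with TGF-β1, and Igfbp5 moves from 259 to 910.

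The summed transcript level of Igfbp2 to Igfbp7 was 39477, 43355 and 44616 normalized counts per kb in CTL and 36470, 39043 and 37023 in TGF-β1. The groups did not overlap. On the log2 scale the CTL sum was 15.37 ± 0.0923 (SD, n = 3) and the TGF-β1 sum 15.19 ± 0.0517 (SD, n = 3). The difference was -0.178, and its two-sided p-value from exact permutation was 0.1, as low as this design goes. Without division by exon length the sums were 52373, 57672 and 57003 normalized counts in CTL and 50753, 56605 and 49286 in TGF-β1. These groups overlapped, with a difference of -0.094 on the log2 scale (exact permutation, p = 0.2). Igfbp7 made up 88.8% ± 3.22 (SD, n = 3) of the CTL sum and 87.9% ± 3.12 (SD, n = 3) of the TGF-β1 sum. Igfbp2 made up 10.0% ± 2.87 (SD, n = 3) and 9.24% ± 2.15 (SD, n = 3). The Igfbp5 share was 0.83%, 0.65% and 0.374% in CTL and 2.35%, 3.42% and 1.46% in TGF-β1. It was higher in every TGF-β1 culture than in any control (exact permutation, two-sided, p = 0.1, adjusted p = 0.6 over 6 shares), a design in which no share can reach the threshold. The other 5 shares had adjusted p-values of 0.8 by the same exact test. Within pairs, the sign-flipping test gave unadjusted p = 0.25 for the Igfbp4, Igfbp5 and Igfbp7 shares and 0.5 to 0.75 for the others. Without division by exon length the Igfbp5 share was 3.76%, 2.93% and 1.76% in CTL and 10.1%, 14.1% and 6.59% in TGF-β1, a difference of 7.47 percentage points in place of 1.79 per kb.

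Genes that act on the binding proteins and their ligand were examined as a list of 8 proteases and protease inhibitors, of which 6 were tested. 1 rose and 1 fell without the block, beside 5.00% and 6.69% of all tested genes, and the median log2 fold change was 0.76. Htra1, which encodes a serine protease that cuts IGFBP5 and other matrix proteins, had 2961, 2847 and 2324 normalized counts in CTL and 7185, 6804 and 5955 in TGF-β1. It rose by 1.29 ± 0.11 on the log2 scale (SE, adjusted p = 0.00379), and the groups were far from overlapping. Stc2, which encodes a stanniocalcin that inhibits PAPP-A, had 5119, 4936 and 3585 in CTL and 2237, 1974 and 2058 in TGF-β1. It fell by 1.12 ± 0.14 (SE, adjusted p = 0.0101).

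With the block, 4 of the 6 rose and 1 fell, beside 15.1% and 19.1% of all tested genes. 3 genes called only there are named after their values were seen. Pappa, which encodes PAPP-A, the protease of IGFBP4 and IGFBP5, had 1886, 4294 and 1646 normalized counts in CTL and 5794, 11848 and 4990 in TGF-β1. The groups did not overlap, the pairs differed 3.07, 2.76 and 3.03 times, and the log2 fold change was 1.53 without the block (adjusted p = 0.105) and 1.56 with it (adjusted p = 1.89e-06). Like Igf1, Pappa was highest in replicate 2 of each group. Adam12, a metalloprotease gene, had adjusted p-values of 0.108 and 0.00126 without and with the block (1.12 and 1.19), and Prss23 of 0.23 and 0.000598 (0.40 and 0.39).

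Genes of growth hormone signalling, the main known stimulus of Igf1 transcription in liver, formed a list of 7. All were tested, 0 rose and 3 fell without the block, beside 5.00% and 6.69% of all tested genes. The median log2 fold change was -0.35. The transcript level of Ghr, the growth hormone receptor gene, was 3855, 3516 and 3232 normalized counts in CTL and 1936, 1831 and 1739 in TGF-β1. It fell by 0.95 ± 0.079 on the log2 scale (SE, adjusted p = 0.00358), in the same pairs in which Igf1 was higher. Cish and Socs3, feedback inhibitor genes induced by STAT5 and STAT3, fell by 1.55 (adjusted p = 0.00601) and 0.89 (adjusted p = 0.0184). With the block 6 of the 7 fell, beside 19.1% of all tested genes. Jak2 did not pass in either fit (0.08, adjusted p = 0.465 without the block). Without both replicate 2 cultures, also with the block, 4 fell, beside 2718 of 15955 genes tested in that fit.

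**Figure D5:**
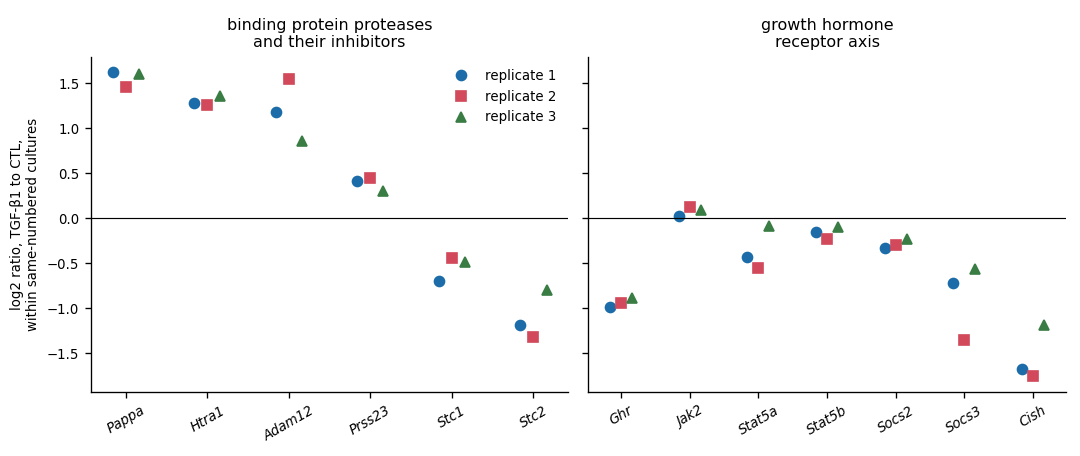
Log2 ratio of TGF-β1 to CTL within same-numbered cultures (y axis) for the tested binding protein proteases and their inhibitors and for the growth hormone receptor axis (x axis), 1 point per pair. Pappa, Htra1, Adam12 and Prss23 lie above 0 and Stc1 and Stc2 below it in all 3 pairs, and every growth hormone axis gene but Jak2 lies below 0.

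Of 11 other receptor substrates and adaptors tested, 0 rose and 1 fell without the block, beside 5.00% and 6.69% of all tested genes, and the median log2 fold change was 0.03. The gene that fell, Irs3, had few reads, with 16.4, 27.9 and 16.4 normalized counts in CTL and 6.09, 3.11 and 1.88 in TGF-β1 (-2.43, adjusted p = 0.0261). Irs2, which encodes the other widely expressed docking protein, had 563, 637 and 357 in CTL and 396, 358 and 301 in TGF-β1. Its log2 fold change was -0.56 ± 0.23 (SE, adjusted p = 0.174), with overlapping groups, and it fell with the block (adjusted p = 0.00736). Irs1 and Irs2 thus pointed in opposite directions in every pair. With the block 1 of the 11 rose (Grb2, 0.17, adjusted p = 0.0169) and 2 fell, beside 15.1% and 19.1% of all tested genes. Of 3 genes for IGF2 mRNA-binding proteins, 0 passed without the block and Igf2bp1 fell with it.

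Of 22 genes of PI3K, AKT and mTOR signalling below the receptors, all were tested. Without the block 1 rose and 2 fell (median log2 fold change 0.06), beside 5.00% and 6.69% of all tested genes. Pik3r1, which encodes the main regulatory subunit of PI3K, had 3677, 4453 and 3880 normalized counts in CTL and 2829, 2530 and 3060 in TGF-β1, and fell by 0.51 (adjusted p = 0.0262). Rheb, which encodes the GTPase that activates mTORC1, rose by 0.27 (adjusted p = 0.0334). With the block 6 rose and 3 fell, beside 15.1% and 19.1% of all tested genes.

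FoxO factors are excluded from the nucleus when AKT is active, and 16 genes of FoxO factors and targets were examined. Of the 13 tested, 3 rose and 1 fell without the block, beside 5.00% and 6.69% of all tested genes. The median log2 fold change was 0.22. Foxo1 had 2687, 2374 and 2832 normalized counts in CTL and 3469, 3185 and 3552 in TGF-β1, and rose by 0.37 (adjusted p = 0.0354). Fbxo32, a ubiquitin ligase gene of muscle wasting, rose by 0.53 (adjusted p = 0.0162), and the low-level Foxo6 by 1.33 (adjusted p = 0.0256), from 19.6 to 32.7 normalized counts in CTL to 52.8 to 71.5. Klf15, also at a low level, fell by 1.59 (adjusted p = 0.0472). With the block 7 rose and 4 fell, beside 15.1% and 19.1% of all tested genes.

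The genes whose log2 level followed Igfbp5 most closely over the 6 libraries, among tested genes with at least 5 CPM, were Trappc2 (Pearson r = 0.994), Glrx2 (r = 0.991) and Pibf1 (r = 0.991). For Igf1r they were Npdc1 (r = 0.999), Jazf1 (r = 0.998) and Hps4 (r = 0.997). These values are a description over 6 libraries that share the difference between the groups. Trappc2 had 201, 204 and 178 normalized counts in CTL and 264, 287 and 238 in TGF-β1, a log2 fold change of 0.44 (adjusted p = 0.0587), far smaller than that of Igfbp5.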

How the data were processed

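RNA was sequenced from 3 CTL and 3 TGF-β1–treated cultures. The authors prepared poly(A) mRNA from 100 ng of RNA and sequenced single 50-bp reads. Reads were trimmed with Trim Galore, aligned to GRCm38 with STAR 2.4.1d and counted on genes with HTSeq 0.6.1, per the labels and the study's methods. The deposited values are read counts per gene, without normalization. Reads on several genes or places were left out by HTSeq; its summary entries held 25.4% to 25.9% of reads and stayed out of library sizes. The strand setting and annotation release are not given in the sources used here.

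Symbols, positions and exon lengths came from GENCODE M21, which matched 46005 of 46517 identifiers. The count tests used edgeR 4.0.16 in R 4.3.3 (filterByExpr, TMM, robust glmQLFit, glmQLFTest). They were also run on simulated counts drawn without a replicate effect, which cannot check the block under pairing. Single values used SciPy 1.17.1, and figures matplotlib 3.10.9. Replicate numbers came from the sample titles, which state no pairing. Same-numbered cultures were taken as pairs on the correlations given in the report. Promoters came from RefSeq, which held 9 of the 10 genes (all but Insr). Alternatives were the replicate block, DESeq2 1.42.0, limma-voom (limma 3.58.1), RLE and library-size scaling, other filters, a threshold of 0.01, levels without exon length, and cultures left out. Named beside all 10 genes were those past the threshold in each list, at most 4 by size of change, with Igf2, Igf2r, Igfbp1 and Irs2, and the 3 genes most like the called genes with the largest rise and fall. The 10 genes and the lists were chosen with earlier results of these data known. Values of some genes in the lists are not reported here.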

Additional observations from a re-analysis of the deposited data

How the results depend on the processing

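At a depth of 28313080 to 34183497 counts per library, Igfbp4 and Igfbp6 had few reads. Igfbp6 also varied widely between cultures, from 35.7 to 124 normalized counts in CTL. All 10 genes are limited by 3 cultures a group. The replicate block kept every direction of the 10 genes. With it 5 genes were lower in place of 1, and 3 were higher in place of 2. The fits with the block that leave out both cultures of a replicate number were chosen after seeing the data. In them 3, 4 and 5 of the 10 genes were lower without replicates 1, 2 and 3, and 3, 3 and 2 were higher. Of all genes tested in these fits (15961, 15955 and 16023), 1649, 2718 and 3254 were lower and 1026, 2288 and 2581 were higher.

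Without the block, 1 gene was higher with library size only, 1 with at least 10 counts in every sample, 0 with no filter beyond 1 count and 0 at a threshold of 0.01, where 0 were also lower. Irs1 was lost with library size only (adjusted p = 0.055 from edgeR) and with at least 10 counts (0.0524), and Irs1 (0.0832) and Igfbp5 (0.142) with no filter. DESeq2, limma-voom and RLE gave 2 higher and 1 lower. Leaving out cultures without the block gave 0 to 2 higher and 0 to 1 lower. Over all genes tested, the same fits gave 0 to 1084 higher and 0 to 1290 lower. Without both replicate 1 cultures 0 of all genes passed in edgeR, with 1938 at an unadjusted p-value under 0.05. Over all genes, the calls ran from 793 higher and 1061 lower to 2388 and 3037 with the block, 1201 and 1521 with DESeq2 and 508 and 1467 with library size only, which moved the median of all genes to -0.0767.

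Signs turned for the Igfbp6 change and for 4 shares. Leaving out cultures moved the Igfbp6 log2 fold change from -1.19 to 0.317. The difference in share, in percentage points, ran from -2.37 to 0.406 for Igfbp2, from -0.131 to 0.0219 for Igfbp3, from -0.0666 to 0.0298 for Igfbp6 and from -2.57 to 0.886 for Igfbp7. Among genes not called without the block, leaving out 1 culture gave log2 fold changes of -0.232 to -0.112 for Insr, -0.516 to -0.197 for Igfbp3, -1.19 to -0.563 for Igfbp4 and -0.255 to -0.128 for Igfbp7. The causes were not tested.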
